A study of Rattus norvegicus with 12 samples.

Results

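Contraction genes of smooth muscle, of the mural cells around vessels and of the myoepithelium were followed in rat mammary glands. The members were 10 genes named by their function, Acta2, Tagln, Cnn1, Lmod1, Myh11, Mylk, Pdgfrb, Rgs5, Oxtr and Tp63, out of 16511 genes in the count table. A row was found for 9 of the 10, and Acta2 was not analysed here. All 9 passed the filter on low counts, as did 9382 genes in the table.

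Smooth muscle cells, pericytes and mammary myoepithelial cells share a contractile apparatus in which myosin pulls on actin filaments, and calcium starts contraction through myosin light chain kinase. In the mammary gland the myoepithelial cells form the basal layer of the ducts and squeeze out milk when oxytocin reaches its receptor, while smooth muscle and pericytes wrap the blood vessels. Several of the genes are made by more than a single one of these cell types, so the level in a gland sums over them.

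Glands came from Sprague-Dawley offspring exposed before birth to a high fat butter diet (HFB) or a control AIN diet (CTL), and were taken at PND21, postnatal day 21. Each diet had 6 libraries, each from 1 snap-frozen gland of a different litter. The sources used here differ on when the exposure began, and on whether it ended at birth or later, after PND21. Libraries are named by diet and library number, 1 to 6 for HFB and 7 to 11 and 14 for CTL. Total counts ran from 2320267 in HFB 1 to 2944680 in CTL 7. Levels are given in CPM, counts divided by the library's TMM-adjusted total and brought to a common scale, and 3 counts, the least level taken as detectable, were worth 0.949 to 1.30 CPM in a library. This limit covers counting error only. The labels name the tissue as mammary gland, while the methods of the study describe RNA from microdissected epithelium of a butter diet with and without bisphenol A, which is not the comparison in the labels. The labels were followed. Adipocyte markers summed to at least 14334 CPM and fibroblast markers to at least 19549.7 CPM in each library. In a tissue of many cell types, fewer cells of a type and less RNA per cell cannot be told apart.

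A set of 3 libraries stood apart from the rest over the genes tested. The first principal component of log2 CPM held 57.5% of the variance, with HFB 6 at 101.6, CTL 14 at 68.5 and HFB 5 at 28.5, against -31.5 to -16.6 in the other 9 libraries. Lymphoid marker genes summed to 1069 CPM in HFB 6 and 1217 CPM in CTL 14, and to 22.6 to 376 CPM in the other 10 libraries. Adipocyte markers, 6 of 6 with a row and led by Fabp4, summed to 17697 CPM in HFB 6 and 14334 CPM in CTL 14, and to 27011 to 34488 CPM in the others. HFB 5 did not share those sums, with 30.2 CPM of lymphoid and 34488 CPM of adipocyte markers. Results that rest on these libraries are therefore given over all 12 libraries and over the 9 without HFB 5, HFB 6 and CTL 14, a set chosen after seeing the data. Values without HFB 6 and CTL 14 alone, an alternative listed beforehand with earlier results known, are given for some results.

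Of the thin filament genes, Tagln encodes transgelin, an actin-binding protein of smooth muscle. Tagln ran from 40.9 to 524 CPM with HFB (median 84.1) and from 58.5 to 589.9 CPM with CTL (median 99.4). HFB 6 and CTL 14 were each far above the rest of their diet, HFB 3 was lowest, and the diets overlapped. Without HFB 5, HFB 6 and CTL 14 the highest Tagln level was 136 CPM, in CTL 7.

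Cnn1 encodes calponin, which binds actin and slows the myosin ATPase. Cnn1 ran from 6.99 to 83.0 CPM with HFB (median 23.9) and from 15.7 to 71.5 CPM with CTL (median 31.8). HFB 1 and HFB 3 were lowest with 6.99 and 8.19 CPM, HFB 6 and CTL 14 were highest, and the diets overlapped. Lmod1 encodes leiomodin, a nucleator of actin filaments, and had 4 to 61 counts in a library. Lmod1 ran from 1.71 to 18.0 CPM with HFB (median 8.85) and from 7.11 to 21.5 CPM with CTL (median 10.6). HFB 2 was lowest, HFB 6 and CTL 14 were highest, and the diets overlapped here too.

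Myh11 encodes the myosin heavy chain of smooth muscle. Myh11 ran from 28.1 to 269 CPM with HFB (median 52.8) and from 49.4 to 300.0 CPM with CTL (median 93.9). HFB 6 and CTL 14 were again far above the rest, and 5 of the 6 HFB libraries lay below the CTL median. Mylk encodes myosin light chain kinase. Mylk ran from 51.1 to 111 CPM with HFB (median 59.98) and from 63.6 to 137 CPM with CTL (median 115). All 6 HFB libraries lay below the CTL median of Mylk, while CTL 8, CTL 9 and CTL 11, at 63.6, 73.5 and 106 CPM, lay within the range of the HFB libraries. HFB 6 and CTL 14 were highest in their diets for Mylk as well, with HFB 4 at 96.0 CPM and CTL 7 at 132 CPM next to them.

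Pdgfrb, the receptor through which PDGF-B recruits pericytes to vessels, ran from 42.0 to 113 CPM with HFB (median 47.4) and from 44.3 to 133 CPM with CTL (median 55.7). The highest were HFB 6 and CTL 14, the other 10 libraries lay between 42.0 and 78.1 CPM, and the diets overlapped. Rgs5 encodes a regulator of G protein signalling and is a common pericyte marker. Rgs5 ran from 8.90 to 13.6 CPM with HFB (median 12.04) and from 9.09 to 19.7 CPM with CTL (median 13.4). It was 13.2 CPM in HFB 6, within the range of the other HFB libraries, and highest in CTL 14, and the diets overlapped. The SD of its log2 level over the 12 libraries was 0.32, against a median of 0.40 over the genes tested.

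Oxtr encodes the oxytocin receptor. Oxtr was 41.5 CPM in HFB 1, 40.3 in HFB 2, 25.3 in HFB 3, 55.1 in HFB 4, 12.8 in HFB 5 and 0.802 in HFB 6. In the CTL group it was 36.1 CPM in CTL 7, 41.5 in CTL 8, 27.8 in CTL 9, 73.1 in CTL 10, 26.1 in CTL 11 and 2.11 in CTL 14. HFB 6 and CTL 14, highest in their diets for the contractile members, were lowest for Oxtr. They had 2 counts, under the detectable level, and 6 counts. The diets overlapped. Tp63 encodes p63, a transcription factor of basal epithelial cells, and had 5 to 33 counts in a library. Tp63 ran from 3.29 to 9.31 CPM with HFB (median 4.25) and from 2.17 to 10.4 CPM with CTL (median 7.91). CTL 9 was below every HFB library, CTL 7 and HFB 4 were highest in their diets, and neither HFB 6 nor CTL 14 was extreme.

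**Figure D1:**
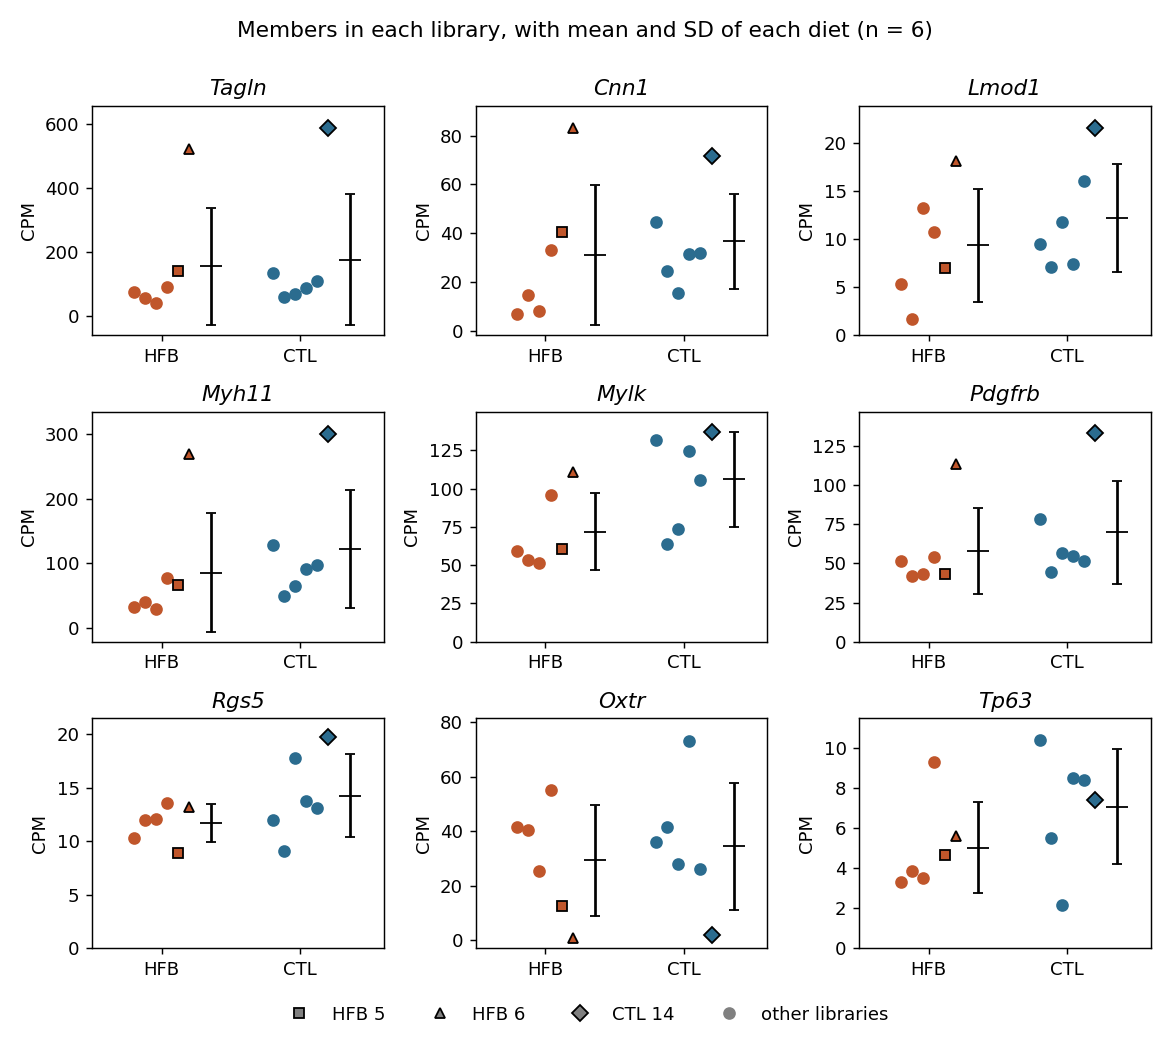
CPM of each member (y axis) in the 6 HFB and 6 CTL libraries (points), with the mean and SD of each diet beside them. HFB 6 (triangle) and CTL 14 (diamond) are the highest of their diets for Tagln, Cnn1, Lmod1, Myh11, Mylk and Pdgfrb and the lowest for Oxtr, where they have 0.802 and 2.11 CPM.

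Promoter sequences are shown for Cnn1 and Mylk, contractile members whose levels varied together over the libraries, and for Oxtr, which was low where they were highest. RefSeq's promoter table of the GRCr8 build had an entry for 6 of the 10 members (Acta2, Cnn1, Mylk, Rgs5, Oxtr and Tp63). The 250 bases before each gene's start were searched on both strands for CATTCC, the core of the MCAT element bound by TEAD factors. They were also searched for the CArG box, the element bound by serum response factor. Only its strict form was sought, CC followed by 6 bases of A or T and then GG. Both motifs were chosen with the sequences in view. Cnn1 is at chr8:28908187-28908436 on the plus strand, Mylk at chr11:79498575-79498824 on the minus strand and Oxtr at chr4:147170500-147170749 on the minus strand, and capitals mark CATTCC or its complement.
Cnn1: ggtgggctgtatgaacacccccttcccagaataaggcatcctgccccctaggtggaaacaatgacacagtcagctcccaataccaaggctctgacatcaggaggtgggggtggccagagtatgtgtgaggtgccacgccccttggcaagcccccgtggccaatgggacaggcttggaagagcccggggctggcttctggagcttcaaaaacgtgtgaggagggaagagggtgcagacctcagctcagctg
Mylk: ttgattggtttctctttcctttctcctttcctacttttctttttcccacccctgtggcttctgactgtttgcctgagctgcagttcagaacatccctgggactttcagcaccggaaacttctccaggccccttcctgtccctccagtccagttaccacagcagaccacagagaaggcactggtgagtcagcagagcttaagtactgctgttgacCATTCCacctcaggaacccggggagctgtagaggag
Oxtr: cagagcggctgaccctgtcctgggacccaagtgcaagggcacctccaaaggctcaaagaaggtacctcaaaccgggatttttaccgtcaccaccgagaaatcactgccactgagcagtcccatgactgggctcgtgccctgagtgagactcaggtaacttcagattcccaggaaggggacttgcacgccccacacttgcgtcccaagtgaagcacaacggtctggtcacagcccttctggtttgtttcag
The Mylk window held CATTCC once, its first base 36 bases before the start, and the windows of Cnn1 and Oxtr did not hold it. Of the 6 members with an entry, 2 (Mylk and Acta2) held it, against 12.1% of the 33469 promoters in the table. The strict CArG form was in 0 of the 6 windows and in 1.5% of the promoters in the table. CArG boxes with a mismatch were not searched, so these windows may still hold one. A match describes the letters of these windows, and binding was not measured.

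Other genes of the contractile apparatus were taken from a list of 30, of which 28 had a row and 24 passed the filter. The most abundant by median CPM was Myl6, an essential light chain of non-muscle and smooth muscle myosin, at 1153 CPM. Myl9, the regulatory light chain, was 481 CPM in HFB 6 and 392 CPM in CTL 14, against 64.0 to 185 CPM in the other libraries. The summed list was 8807 CPM in HFB 6, 5897 CPM in CTL 14 and 4287 CPM in HFB 5, and 2713 to 3614 CPM in the other 9 libraries. These high sums were in the 3 libraries with the highest Tagln levels.

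Not every gene of the list was high in those libraries. Cald1, which encodes the actin-binding protein caldesmon, was 10.4 CPM in HFB 6, 21.7 in HFB 5 and 26.4 in CTL 14, against 129 to 255 CPM in the other 9 libraries. Outside that list, among the regulators of contraction, Rock2, a kinase that keeps myosin light chains phosphorylated, was 6.41 CPM in HFB 6, 3.87 in HFB 5 and 4.58 in CTL 14, against 29.2 to 65.7 CPM in the others. Both genes were chosen after their values were seen, because they were low in the libraries where Oxtr was low. The cause of these low values was not tested.

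Within the actin family, Actg2, the enteric smooth muscle actin, ran from 9.36 CPM in HFB 3 to 196.4 CPM in HFB 6. CTL 14 had 192 CPM and CTL 7, the next CTL library, had 91.4 CPM. Actg2 was thus highest in the same libraries as Tagln and Myh11. Acta1, the skeletal muscle actin, ran from 76.1 CPM in CTL 10 to 2196 CPM in HFB 3. Actb and Actg1, the cytoplasmic actins, ran from 731 to 2700.1 CPM and from 849 to 1826 CPM, and HFB 6 had the lowest Actb and the highest Actg1. Actc1, the cardiac actin, ran from 15.2 to 44.2 CPM. Actin genes are close copies of each other, and how reads shared between copies were counted is not given in the sources used here, so their levels are uncertain.

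Among the myosin heavy chains, the skeletal genes Myh1, Myh2 and Myh4 were highest, like Acta1, in HFB 3, HFB 6 and CTL 11. Myh1 ran from 19.3 to 479 CPM, Myh2 from 9.65 to 254 CPM and Myh4 from 13.4 to 740.0 CPM. Myh7, of slow and cardiac muscle, ran from 1.71 to 87.8 CPM. The non-muscle genes Myh9, Myh10 and Myh14 ran from 32.9 to 322 CPM, from 16.4 to 53.8 CPM and from 8.97 to 24.4 CPM, and Myh9 was lowest in HFB 6.

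Of 15 regulators of contraction 13 had a row and 8 passed the filter. Myocd, the coactivator that drives smooth muscle genes, was at most 0.870 CPM, under the detectable level, and Mrtfa and Mrtfb were not analysed here. Srf, the factor Myocd acts on, ran from 45.4 CPM in HFB 2 to 106 CPM in CTL 14, with 96.6 CPM in HFB 6. Rhoa, used by nearly every cell, is listed at 0 in all 12 libraries, so a listing at 0 is not read as absence.

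Markers of the cells that could carry the members were summed in each library, members left out. Luminal epithelial markers had a row for 7 of 7 genes, 6 of which passed the filter, with Krt8 the most abundant at a median of 109.0 CPM and Cldn3 listed at 0 in all libraries. Their sum was 116, 155, 129, 382, 578 and 619 CPM in HFB 1 to HFB 6. It was 500.5, 251, 184, 375, 455 and 598 CPM in CTL 7 to CTL 11 and CTL 14. HFB 1, HFB 2 and HFB 3 were lowest in luminal markers, as they were in Cnn1 and Myh11.

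Basal epithelial markers had a row for 10 of 15 genes, 8 of which passed the filter, and Krt5 was not analysed here. The most abundant was Itga6, an integrin subunit of basal cells, at a median of 103 CPM. The sum ran from 143 CPM in HFB 1 to 433 CPM in HFB 6 and from 183 CPM in CTL 9 to 504 CPM in CTL 14. Endothelial markers had a row for 5 of 7 genes, led by Pecam1 at a median of 51.8 CPM, with Cldn5 listed at 0 in all libraries. Their sum was 368 CPM in HFB 6 and 393 CPM in CTL 14 and 130.4 to 215 CPM in the other 10. Pecam1 alone was 256 and 240.2 CPM in HFB 6 and CTL 14, while Cdh5 was lowest of all libraries in HFB 6, at 2.81 CPM, with 27.5 CPM in CTL 14. Pericyte markers other than Pdgfrb and Rgs5 had a row for 13 of 14 genes, led by Mcam at a median of 421 CPM. Unlike Pdgfrb, their sum was lowest in HFB 6 (651 CPM) and CTL 14 (673 CPM), with 724 to 992 CPM in the others. Mcam, at 226 and 243 CPM in HFB 6 and CTL 14, made up much of that sum. Cox4i2 (58.9 and 38.7 CPM), Foxs1 (47.7 and 26.4), Heyl (36.1 and 35.6) and Rgs4 (29.7 and 37.3) were highest in those libraries, as Pdgfrb was, so the list went both ways.

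The remaining lists differed in which libraries were high. Skeletal muscle markers, 9 of 9 with a row and led by Acta1, ran from 228 CPM in CTL 10 to 8054 CPM in HFB 6, with 7941 in CTL 11 and 6988 in HFB 3. Red blood cell markers, 4 of 4 and led by Hba-a1, were highest in HFB 2 (82576 CPM) and CTL 9 (51383 CPM). Fibroblast markers, 6 of 6 and led by Col3a1, were lowest in CTL 14 (19549.7 CPM) and HFB 6 (20501 CPM). Schwann cell markers, 4 of 4 and led by Mbp, were highest in CTL 14 (387 CPM). Lymphoid markers had a row for 7 of 8 genes, led by Ptprc, and keratinocyte markers for 2 of 4, led by Krt10, with a sum of 4.23 to 10.7 CPM.

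**Figure D2:**
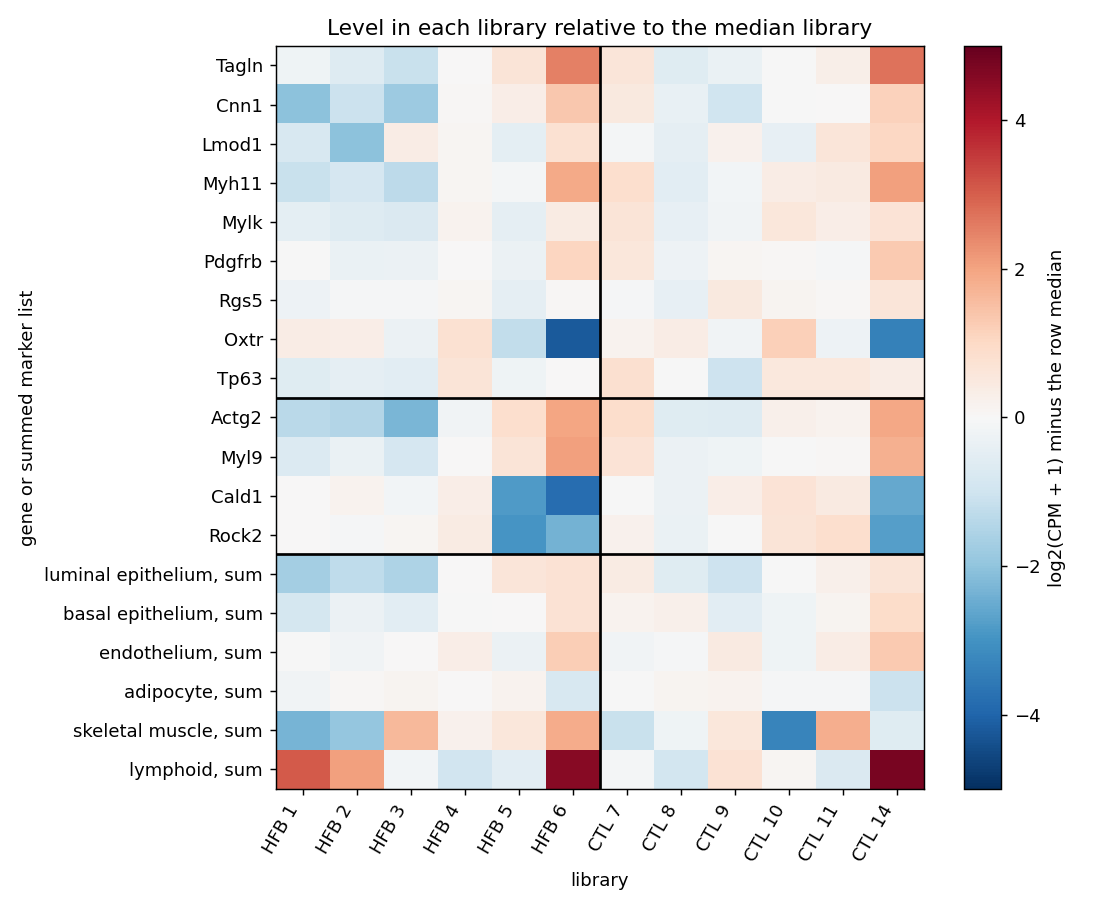
log2(CPM + 1) minus the median over the 12 libraries (colour), for the members, 4 other contractile genes and 6 summed marker lists (rows) in each library (columns). HFB 6 and CTL 14 are red for Tagln, Myh11, Actg2 and Myl9 and blue for Oxtr, Cald1 and Rock2, while HFB 1 to HFB 3 are blue for Cnn1, Myh11 and the luminal sum (116 to 155 CPM).

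Likeness over the libraries was described with Pearson's r and Spearman's rho of log2 CPM, without p-values, since the points share the tissue's make-up and the normalization. Over the 36 pairs of members the median r was 0.377 in the 9 libraries and 0.555 in all 12. Myh11 and Mylk were closest in the 9 libraries (r = 0.958, rho = 0.967), with r = 0.865 over 12. Cnn1 and Myh11 had r = 0.926 (rho = 0.917) over 9 and 0.921 over 12. Tagln and Myh11 had r = 0.881 (rho = 0.883) over 9 and 0.929 over 12. Among Tagln, Cnn1, Myh11 and Mylk the lowest r over 9 libraries was 0.738, between Tagln and Cnn1. Over 12 it was 0.678 and without HFB 6 and CTL 14 alone 0.634, both between Tagln and Mylk. Many other genes had as high an r with these members.

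The relations of Oxtr are among those that rested on these libraries. Over all 12, r was below 0 in 7 of its 8 pairs, and with Tagln it was -0.867 (rho = -0.483). Over the 9 libraries r was below 0 in 2 of the 8 pairs, and with Tagln it was 0.221 (rho = 0.217). Without HFB 6 and CTL 14 alone, which are also the 2 libraries farthest from the median of Tagln, it was -0.218. The opposite course of Oxtr and Tagln thus rested on HFB 5, HFB 6 and CTL 14. Other relations were weaker without them as well. Lmod1 with Tagln had r = 0.263 over 9 and 0.574 over 12, and Pdgfrb with Rgs5 had 0.308 and 0.614. With the endothelial sum, Pdgfrb had r = 0.0151 over 9 and 0.829 over 12, and Tagln had 0.107 and 0.788. With the pericyte sum Pdgfrb had r = -0.0603 over 9 and -0.564 over 12. Its r with the fibroblast sum changed sign, from 0.573 (rho = 0.75) over 9 to -0.711 over 12.

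Cnn1 followed the luminal sum most closely among the members. Their r was 0.973 (rho = 0.983) over 9 libraries and 0.965 (rho = 0.986) over 12, and 0.933 without HFB 1 and HFB 3, the 2 farthest from the median of that sum. Myh11 and the luminal sum had r = 0.945 (rho = 0.950) over 9 and 0.852 over 12. Mylk had r = 0.920 (rho = 0.883) over 9, 0.689 without HFB 6 and CTL 14 alone and 0.759 over 12, and Tp63 had 0.901 (rho = 0.850), 0.755 and 0.711. Without HFB 1 and HFB 3 it was lower, at 0.765 for Myh11, 0.653 for Mylk and 0.612 for Tp63. Tagln had r = 0.806 with the luminal sum over 9 and 0.772 over 12, and Pdgfrb had 0.611 and 0.594. With the basal sum, Cnn1 had r = 0.8753 over 9 and 0.916 over 12, and Myh11 had 0.675 and 0.870. Tagln had 0.460 and 0.823 with the basal sum, Pdgfrb 0.246 and 0.733, Mylk 0.561 and 0.653, and Tp63 0.764 and 0.583. With the endothelial sum, Cnn1 had r = 0.0261 over 9 and 0.541 over 12, Myh11 had 0.133 and 0.746, and Mylk had 0.0288 and 0.486. Luminal markers thus moved with Cnn1 in each set and less closely with the others. Basal markers also moved with Cnn1 in each set. For Myh11, Tagln and Pdgfrb the basal r was above the luminal r over 12 libraries and below it over 9. Endothelial markers moved with the members mainly over 12. The part of these cells in the levels was not tested.

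Rgs5 and Lmod1 followed other sums more closely. Rgs5 had r = 0.179 (rho = 0.3) with the luminal sum over 9 libraries, and 0.571 (rho = 0.383) with the endothelial sum. Over all 12 libraries Rgs5 had r = 0.681 (rho = 0.650) with the endothelial sum. With the pericyte sum Rgs5 had r = 0.520 (rho = 0.35) over 9 libraries and 0.0588 over 12. Without HFB 6 and CTL 14 alone it was 0.613, against 0.653 with the endothelial sum. Over 9 libraries Lmod1 had r = 0.692 (rho = 0.850) with the skeletal muscle sum, 0.686 with the Schwann sum, 0.685 with the contractile sum and 0.607 with the endothelial sum. Over 12 these were 0.617, 0.717, 0.592 and 0.719 and without HFB 6 and CTL 14 alone 0.660, 0.658, 0.344 and 0.588, so no single sum stood out for Lmod1. Oxtr had r = -0.765 (rho = -0.767) with the skeletal muscle sum over 9 and -0.474 over 12, and -0.313 without HFB 1 and CTL 10, the 2 farthest from the median of that sum. With the contractile sum Oxtr had r = -0.467 over 9, -0.771 without HFB 6 and CTL 14 alone and -0.963 over 12. Over 12 libraries Oxtr had r = 0.815 with the adipocyte sum, 0.744 with the fibroblast sum and 0.690 with the pericyte sum. Over 9 these were -0.311, -0.114 and -0.0591. The part of endothelium, pericytes, adipocytes, fibroblasts, skeletal muscle and Schwann cells in these levels was not tested.

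**Figure D3:**
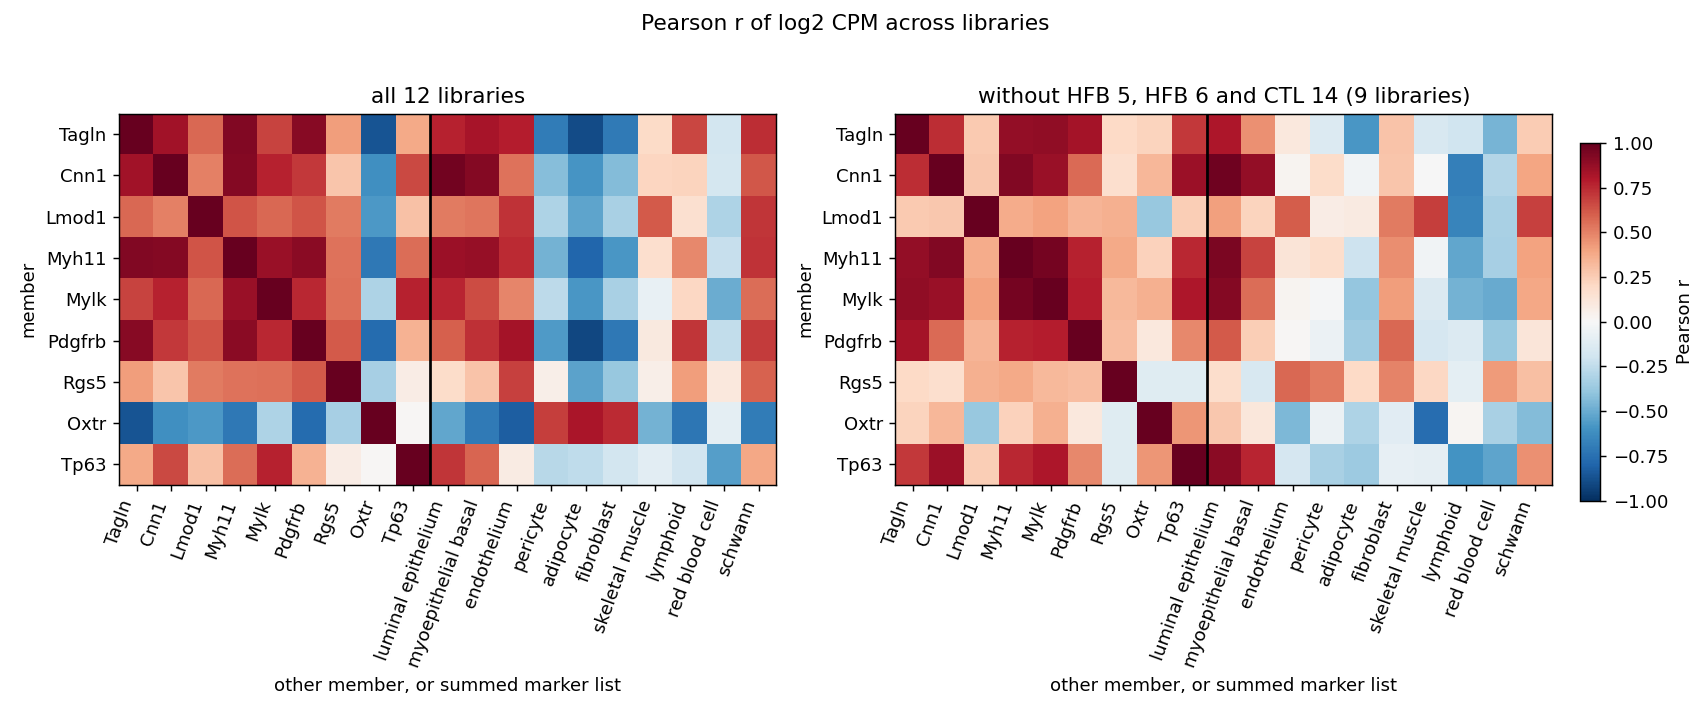
Pearson r of log2 CPM (colour) between each member (rows) and the other members or summed marker lists (columns), over all 12 libraries (left) and over 9 (right). The block of Tagln, Cnn1, Myh11, Mylk and the luminal sum is red in both panels, while Oxtr with Tagln is blue at left (r = -0.867) and pale at right (0.221).

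The 3 genes most like each member over 12 libraries were taken from the genes tested. For Cnn1 they were Tfap2c (0.968), Rab25 (0.966) and Lcn2 (0.961). For Tp63 they were Ccdc77 (0.896), Esrp1 (0.884) and Col17a1 (0.879). For Rgs5 they were Cxcl12 (0.908), Adgrf5 (0.883) and Eif2ak4 (0.859).

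For Tagln the nearest were Arvcf (0.9753), Lig1 (0.971) and Myl9 (0.971). For Myh11 they were Chi3l1 (0.956), Cacna1g (0.947) and Actg2 (0.945), and for Mylk Shroom2 (0.9297), Rgs12 (0.918) and Reln (0.897). For Lmod1 the nearest were Pawr (0.918), Podxl (0.908) and Lmcd1 (0.903), for Pdgfrb Supt16h (0.972), Mau2 (0.964) and Cstf1 (0.956), and for Oxtr Cryzl2 (0.989), Pdgfc (0.987) and Mfn2 (0.985). Among the 9381 other genes, Myh11 was at rank 9 for Mylk, 24 for Cnn1 and 81 for Tagln. For Myh11, Tagln was at rank 10, Cnn1 at 13 and Mylk at 81. For Tagln, Cnn1 was at rank 751 and Mylk at 1960, and for Cnn1, Tagln was at rank 117 and Mylk at 277. Over the 9 libraries the ranks differed. For Tagln, Mylk was at rank 20 there, Myh11 at 25 and Cnn1 at 268. For Cnn1, Myh11 was at rank 29, Mylk at 98 and Tagln at 299. For Myh11, Mylk was at rank 6, Cnn1 at 21 and Tagln at 63. In each set other genes were therefore closer to a member than another member was, in numbers that depended on the set. In the 9 libraries, a look added after seeing the data, 1 of the 3 genes was again among the 3 nearest for Myh11 (Actg2), Mylk (Rgs12) and Tp63 (Ccdc77), and 0 of the 3 were for each other member.

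The diets were compared to ask whether these genes differed between HFB and CTL. No member and no other gene had an adjusted p under 0.05 in edgeR, where 0 of 9382 genes (0%) were called. DESeq2 called 0 of 9276 genes (0%) and limma-voom with sample quality weights 0 of 9382 (0%). At an unadjusted p under 0.05 edgeR gave 220 genes (2.34%), DESeq2 271 and limma-voom 613 of 9382. Of the 9 members, 1 (Mylk) was among the 220, and among the 98 of them (1.04% of the genes tested) that were lower with HFB. Among the 613 of the weighted limma-voom fit were 3 members, Cnn1, Myh11 and Mylk, with log2 fold changes of -1.04, -1.01 and -0.68 there, none with an adjusted p under 0.05. With a fold change over 2 added, 11 genes (0.117%) and 0 members passed. The diet groups did not overlap for 10 genes (0.107%) and for 0 members.

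Mylk was 71.9 ± 25.0 CPM (SD, n = 6) with HFB and 106 ± 31.0 CPM (SD, n = 6) with CTL. Its log2 fold change was -0.56 (SE 0.25), below the CTL median in 6 of 6 HFB libraries, with an adjusted p of 0.999 in edgeR. It did not pass the test over all genes, and 1 member in 9 is not read as a result about the members. The count of members at an unadjusted p under 0.05 was 0 in 8 of the 12 fits that each left out 1 library. These were the fits without HFB 1, HFB 2, HFB 3, HFB 5, CTL 7, CTL 10, CTL 11 or CTL 14. The count was 3 of the 9 without HFB 6, where 269 genes had such a p, and their share of the genes tested was not computed. Over the 12 fits the log2 fold change of Mylk ranged from -0.72 to -0.46.

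Myh11 was 85.3 ± 91.8 CPM (SD, n = 6) with HFB and 122 ± 91.5 CPM (SD, n = 6) with CTL, a log2 fold change of -0.51 (SE 0.58). Tagln was 155 ± 184 CPM (SD, n = 6) and 176 ± 205 CPM (SD, n = 6), a log2 fold change of -0.18 (SE 0.70). For both genes the SD within a diet was larger than the difference between the diets. The log2 fold change was -0.24 (SE 0.56) for Cnn1 and -0.38 (SE 0.45) for Lmod1, -0.27 (SE 0.31) for Pdgfrb and -0.28 (SE 0.21) for Rgs5, and -0.23 (SE 0.71) for Oxtr and -0.49 (SE 0.36) for Tp63. It was thus below 0 for 9 of 9 members, with a median of -0.28, and each had an adjusted p of 0.999 in edgeR. Over the genes tested the median was 0.00018 and 49.97% were below 0. Tagln, Cnn1, Myh11 and Mylk vary together, while Oxtr had r below 0 in 7 of its 8 pairs over 12 libraries. All 9 members come from the same libraries, so their shared direction does not count as 9 separate observations.

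That direction rested on single libraries for 5 members. Without CTL 14 the log2 fold change was 0.77 for Tagln, 0.087 for Cnn1, 0.015 for Myh11 and 0.037 for Pdgfrb, while without HFB 6 it was -1.11 for Tagln and -1.32 for Myh11. For Oxtr it was 0.024 without HFB 6 and 0.14 without CTL 10, and for Tagln 0.019 without HFB 3. Without HFB 6 and CTL 14 together, 431 genes and 2 members (Myh11 and Mylk, adjusted p 0.919 and 0.919 in edgeR) had an unadjusted p under 0.05. Without HFB 5 as well, 509 of 9480 genes (5.37%) and 3 members (Cnn1, Myh11 and Mylk) did, and 0 genes had an adjusted p under 0.05. In that fit Myh11 was 44.4 ± 22.3 CPM (SD, n = 4) with HFB and 85.9 ± 30.2 CPM (SD, n = 5) with CTL. Its log2 fold change there was -0.95 (SE 0.31), with an adjusted p of 0.876 in edgeR and groups that overlapped. Leaving out the 3 libraries was decided after seeing the data and gives more members than the 12 do, so the count over 12 is the main one.

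The intervals give the sizes of change that the 12 libraries leave possible. For Rgs5 the 95% interval of the log2 fold change was -0.74 to 0.17, and for Pdgfrb it was -0.95 to 0.41. For Tagln it was -1.69 to 1.34 and for Oxtr -1.75 to 1.29. A 2-fold change in either direction thus lies outside the interval for Rgs5 and Pdgfrb and inside it for Tagln and Oxtr.

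**Figure D4:**
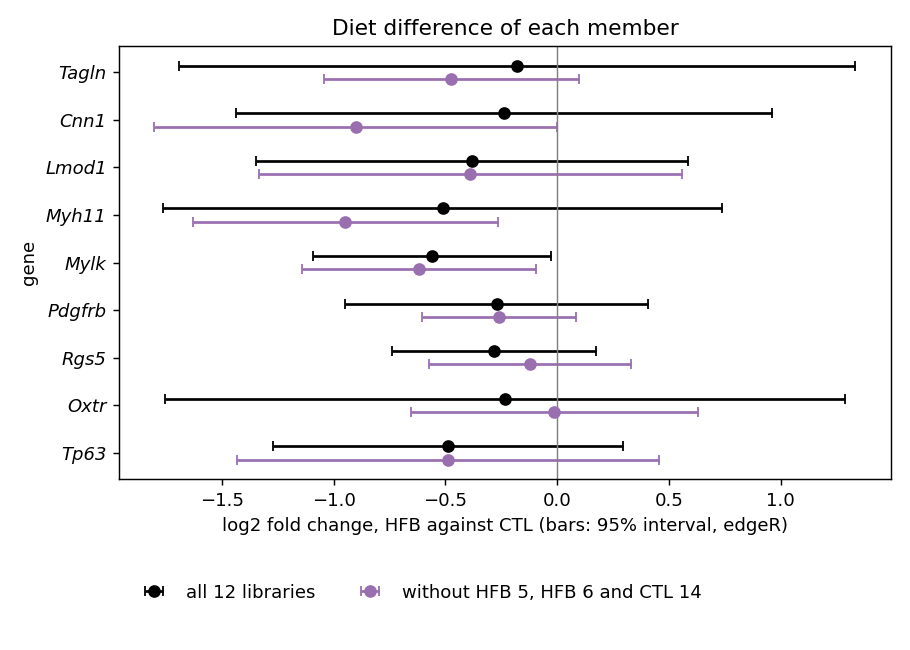
log2 fold change of each member between HFB and CTL (x axis, points) with its 95% interval (bars) from edgeR, over all 12 libraries (black) and without HFB 5, HFB 6 and CTL 14 (purple). Each interval but that of Mylk (-1.09 to -0.026) includes 0 over 12 libraries, and no member passed the adjusted threshold in either fit.

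The other lists were compared between the diets in the same fit, members left out. Of the 24 other contractile genes tested, 14 were lower with HFB, 0 had an unadjusted p under 0.05 in edgeR, and the median log2 fold change was -0.13. Of 12 pericyte genes, with a median of -0.12, 1 had an unadjusted p under 0.05, Notch3, a receptor that mural cells need to mature. Notch3 was 11.7 CPM with HFB and 23.8 CPM with CTL on average. Its log2 fold change was -1.02 (SE 0.30), below the CTL median in 6 of 6 HFB libraries, with an adjusted p of 0.999 in edgeR. Of the 5 actin genes, with a median of -0.093, 1 was among the 220, Actc1. It was 20.7 CPM with HFB and 29.0 CPM with CTL on average, with a log2 fold change of -0.48 (SE 0.22). Its unadjusted p was 0.0496 in edgeR, 0.045 in DESeq2 and 0.14 in the weighted limma-voom. Without HFB 6 and CTL 14, or without HFB 5 as well, Actc1 had no unadjusted p under 0.05 in edgeR.

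The luminal list had a median log2 fold change of -0.28 over 6 genes, 6 of them below 0, and the basal list -0.23 over 8 genes, 8 of them below 0. The fibroblast list was below 0 for 6 of 6 genes and the Schwann list for 4 of 4, the latter for 3 of 4 without HFB 6 and CTL 14 and 2 of 4 without HFB 5 as well. The part of these cells in the lower values with HFB was not tested. The skeletal muscle list had a median of 0.42 over 9 genes, the red blood cell list 0.96 over 4, the lymphoid list 0.31 over 3 and the Schwann list -0.37 over 4. The adipocyte, fibroblast and endothelial lists had medians of -0.0027 over 6, -0.13 over 6 and -0.14 over 4. The contraction regulators had a median of -0.25 over 8 genes, the myosin heavy chains other than Myh11 0.28 over 7, and Krt10, the 1 keratinocyte gene tested, -0.24. No gene of these lists other than Notch3 and Actc1 had an unadjusted p under 0.05 in edgeR, and 0 had an adjusted p under 0.05.

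Some list medians rested on the libraries that stood apart, in fits added after seeing the data. Without HFB 5, HFB 6 and CTL 14 the median log2 fold change was -0.91 for the luminal list, where 3 of 6 genes (Krt18, Epcam and Cdh1) had an unadjusted p under 0.05 in edgeR, and -0.56 for the basal list, where 2 of 8 did (Lamb3 and Col17a1). It was 1.73 for the lymphoid list, with 2 of 3 genes (Ptprc and Lck), -0.28 for the fibroblast list, with 2 of 6 (Pdgfra and Lum), and -0.19 for the contractile list, with 2 of 24 (Actg2 and Myl9). The skeletal muscle list, above 0 over 12 libraries, was at -0.14 and the myosin heavy chains at -0.19. Ednra (regulators), Notch3 (pericyte), Sox10 (Schwann) and Myh10 (myosin heavy chains) also had an unadjusted p under 0.05 in edgeR. In that fit 5.37% of the genes had an unadjusted p under 0.05, and 0 genes had an adjusted p under 0.05. Without HFB 6 and CTL 14 alone, 431 genes had an unadjusted p under 0.05 in edgeR. The luminal median was -0.45 there, with 0 of 6 genes at such a p, and the basal median -0.26 with 1 of 8 (Col17a1). The contractile median was -0.21 with 1 of 24 (Ppp1r12b), the lymphoid median 1.48 with 2 of 3 (Ptprc and Lck). The fibroblast median was -0.18 with 2 of 6 (Pdgfra and Lum).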

How the data were processed

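Per the labels, RNA of snap-frozen mammary glands was sequenced (the study's methods describe microdissected epithelium of other groups, a butter diet with and without bisphenol A), and the authors deposited raw counts of reads per gene, listed by Entrez identifier, without normalization. The submitters' processing notes name bcl2fastq, CASAVA 1.8, TopHat, DESeq and the rn4 build, and how shared reads and strand were handled is not given in the sources used here. Symbols came from the RefSeq gene table of GRCr8 and matched 16351 of 16511 identifiers. The diets were compared with edgeR 4.0.16 in R 4.3.3 (TMM, filterByExpr, quasi-likelihood test, Benjamini-Hochberg adjustment over 9382 genes), with DESeq2 1.42.0 and limma 3.58.1 (voom with sample quality weights) among 20 other settings fitted. The tests were tried on simulated data. Likeness used log2 CPM with a prior count of 2. No pair of libraries within a diet agreed within sampling noise (chi-square per degree of freedom at least 6.69 over 30 pairs). The genes named were the members, the other actins and myosin heavy chains, Myocd, Srf, Mrtfa and Mrtfb, the 3 genes most like each member, and from most lists the most abundant gene, and from each list any gene with an unadjusted p under 0.05; others are said to be chosen after their values were seen or listed at 0, or (Cdh5, Cox4i2, Foxs1, Heyl, Rgs4) were named after their values were seen. The members and lists were chosen with earlier results of these data known. Coding lengths were not used. The most abundant gene of a list is the one with the most CPM, and levels are otherwise not compared between genes.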

Additional observations from a re-analysis of the deposited data

Results flagged for a closer look

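In 19 of 52 sets of 6 libraries of a diet, the most extreme library lay farther from its neighbour, as a share of the spread of the set, than Dixon's critical value allows. Chance flags about 1 in 20 groups, and most of these values come from the same few libraries.

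Among the members, Tagln was 524 CPM in HFB 6, with 141 CPM in the next library, and 589.9 CPM in CTL 14, with 136 CPM in the next. Myh11 was 269 CPM in HFB 6, with 77.0 CPM in the next, and 300.0 CPM in CTL 14, with 127 CPM in the next. Pdgfrb was 113 CPM in HFB 6, with 54.1 CPM in the next. Of the actins, Actg2 was 192 CPM and Actg1 1713 CPM in CTL 14, with 91.4 and 1005 CPM in the next.

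The summed contractile list was 8807 CPM in HFB 6 and 5897 CPM in CTL 14. The endothelial sum was 368 and 393 CPM in the same libraries, of which Pecam1 was 256 and 240.2 CPM, while Cdh5 of the same list was lowest in HFB 6 (2.81 CPM). The lymphoid sum was 1069 and 1217 CPM. In CTL 14 the adipocyte sum was 14334 CPM, at the low end, and the Schwann sum 387 CPM, at the high end. The red blood cell sum was 82576 CPM in HFB 2 and 51383 CPM in CTL 9. What set these libraries apart was not tested.

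Total counts were 2320267 in HFB 1, the lowest of its diet, and 2944680 in CTL 7, the highest of its diet.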

How the results depend on the processing

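No gene had an adjusted p under 0.05 in edgeR with the 12 libraries or in any of the 20 other fits (DESeq2 and limma-voom included), while 220 had an unadjusted p under 0.05 in edgeR. That count was 613 with limma-voom and its sample quality weights (method and weights together), 431 without HFB 6 and CTL 14, and 509 without HFB 5 as well, the last chosen after seeing the data. With 1 library left out it ranged from 135 (without HFB 5) to 587 (without CTL 14). The number of members among them, 1 with the 12 libraries, was 3 with the weighted limma-voom, 2 without HFB 6 and CTL 14 and 3 without HFB 5 as well, and ranged from 0 to 3 with 1 library left out.

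In the 8 alternatives that did not leave out a single library, 69 of 69 member fold changes kept their direction, with sizes that differed (Cnn1 -1.04 with the weighted limma-voom, -0.24 in edgeR). Lmod1, Oxtr and Tp63 could not be fitted under the filter of 10 counts in each library. With 1 library left out, the log2 fold change ranged from -1.11 to 0.77 for Tagln, -0.82 to 0.087 for Cnn1, -1.32 to 0.015 for Myh11, -0.58 to 0.037 for Pdgfrb and -0.52 to 0.14 for Oxtr, and was above 0 for Tagln also without HFB 3 (0.019) and for Oxtr without HFB 6 (0.024). It was below 0 in each of these fits for Lmod1, Mylk, Rgs5 and Tp63.

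The median r over pairs of members, 0.555, was 0.483 with the diet means subtracted, 0.393 without HFB 6 and CTL 14 and 0.377 without HFB 5 as well, and ranged from 0.406 to 0.616 with 1 library left out. The median log2 fold change of the marker lists, an alternative added after seeing the data, changed sign without HFB 6 and CTL 14 for skeletal muscle (-0.0992) and the myosin heavy chains (-0.207), and without HFB 5 as well for skeletal muscle (-0.143), the myosin heavy chains (-0.189), adipocyte (0.0104) and actin genes (0.00276). For each of these the cause was not tested. The level per kb of coding length was not run. No paired analysis was possible because HFB and CTL have no library number in common. Low counts of Lmod1, Tp63 and, in HFB 6, Oxtr limit what depth can show for them.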
